A study of Mus musculus with 2 samples.

Results

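Neurotransmitter receptors are best known from synapses, yet 8 genes for such receptors and for synaptic adhesion proteins gave unique molecular identifiers (UMIs, tags that count each captured transcript once) in fibroblasts of the mouse mammary gland. They were read by symbol out of 33696 genes listed: *Gria1* (ENSMUSG00000020524) and *Gria4* (ENSMUSG00000025892), *Grin2b* (ENSMUSG00000030209), *Grm8* (ENSMUSG00000024211), *Chrm2* (ENSMUSG00000045613), *Gabra2* (ENSMUSG00000000560), *Nlgn1* (ENSMUSG00000063887) and *Il1rapl1* (ENSMUSG00000052372). The 8 genes were chosen by name after earlier results of these same libraries had been seen, and the values they were selected on were their levels by stage and by fibroblast subset. All levels, shares, ratios and folds of the 8 genes are therefore descriptions, with no test.

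The single-cell RNA sequencing (scRNA-seq) data held 1 library from puberty (4 weeks of age) and 1 from virgin adults (9 weeks), both marked as replicate 2, of stromal cells from female wild-type C57BL/6 mice. The labels give 2 females per condition but also speak of the same mouse for both ages, so how many mice stand behind a library is not certain. Cells had been sorted as negative for lineage markers (CD31, CD45 and TER-119) and for CD24, a gate against endothelial, immune, red blood and epithelial cells. With 1 library per stage, no difference between puberty and adult could be set against the spread between mice. Fibroblasts were taken as cells with at least 500 genes, at most 10% mitochondrial UMIs and at least 1 UMI of *Pdgfra*, the PDGF receptor that stromal fibroblasts carry. There were 18878 such cells among 21688 barcodes at puberty and 20999 among 23183 in the adult, with a median of 12187 and 11265 UMIs, and 99.9% and 99.8% of them had UMIs of at least 3 of the 5 fibroblast genes *Dcn*, *Lum*, *Pdgfra*, *Col1a1* and *Col1a2*. In all, 145 barcodes occurred in both libraries.

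Ionotropic glutamate receptors are channels that glutamate opens: *Gria1* and *Gria4* encode AMPA receptor subunits, and *Grin2b* an NMDA receptor subunit that works together with the obligatory subunit *Grin1*. *Grm8* encodes a metabotropic glutamate receptor coupled to inhibitory G proteins, *Chrm2* the M2 muscarinic acetylcholine receptor of the same coupling, and *Gabra2* an alpha subunit of the GABA-A chloride channel, which needs beta subunits beside it. *Nlgn1*, a neuroligin, and *Il1rapl1*, a relative of the interleukin-1 receptor, encode postsynaptic adhesion proteins that bind presynaptic neurexins and the receptor phosphatase *Ptprd*. Fibroblasts of the gland lie beside nerve fibres, vessels, ducts and fat, and their classes are told apart by genes such as *Pi16* and *Dpp4* (progenitor-type cells), *Gdf10* and *Fmo2*, *Thbs4* and *Bmp5*, *Fabp4* (cells turning to fat) and *Crabp1*.

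RefSeq promoter windows of 300 bases (250 before to 50 after a start, build GRCm38.p6, written 5′ to 3′ on the gene's strand) were at hand for 6 of the 8 genes, in 9 windows. Those of *Gabra2* (chr5:71095800-71096099, minus strand), *Gria4* (chr9:4796185-4796484, minus strand), *Chrm2* (chr6:36387834-36388133, plus strand) and the most upstream of 3 windows of *Grm8* (chr6:28135097-28135396, minus strand) are shown because these 4 genes differed in the fibroblast subsets where they stood highest, and the downstream of 2 windows of *Nlgn1* (chr3:26153937-26154236, minus strand) because of a motif named under it. Capitals mark matches on either strand to any of 5 motifs. The TATA box was searched as the letters TATAAA, the NF-Y box as the letters CCAAT and the Sp1 box as the letters GGGCGG. The core site of nuclear receptors was searched as AGGTCA, and the left arm of the REST site as TTCAGCACC.
Gabra2: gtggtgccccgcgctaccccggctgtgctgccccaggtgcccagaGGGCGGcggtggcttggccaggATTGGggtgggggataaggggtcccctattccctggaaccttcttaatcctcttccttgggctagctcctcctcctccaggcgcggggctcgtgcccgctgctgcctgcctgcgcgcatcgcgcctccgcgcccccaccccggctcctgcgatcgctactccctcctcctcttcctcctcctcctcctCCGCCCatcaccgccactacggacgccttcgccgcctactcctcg
Gria4: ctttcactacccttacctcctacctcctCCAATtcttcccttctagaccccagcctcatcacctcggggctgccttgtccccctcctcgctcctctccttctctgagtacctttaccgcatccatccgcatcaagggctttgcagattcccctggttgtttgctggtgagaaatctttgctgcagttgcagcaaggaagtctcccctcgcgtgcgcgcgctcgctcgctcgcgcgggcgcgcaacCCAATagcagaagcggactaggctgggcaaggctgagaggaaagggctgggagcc
Chrm2: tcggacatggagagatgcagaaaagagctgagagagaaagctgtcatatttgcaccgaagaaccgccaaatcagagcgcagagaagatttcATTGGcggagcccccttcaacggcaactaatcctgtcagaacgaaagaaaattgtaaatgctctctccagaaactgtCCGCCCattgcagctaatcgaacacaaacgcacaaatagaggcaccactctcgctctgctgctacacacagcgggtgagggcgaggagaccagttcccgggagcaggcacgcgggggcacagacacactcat
Grm8: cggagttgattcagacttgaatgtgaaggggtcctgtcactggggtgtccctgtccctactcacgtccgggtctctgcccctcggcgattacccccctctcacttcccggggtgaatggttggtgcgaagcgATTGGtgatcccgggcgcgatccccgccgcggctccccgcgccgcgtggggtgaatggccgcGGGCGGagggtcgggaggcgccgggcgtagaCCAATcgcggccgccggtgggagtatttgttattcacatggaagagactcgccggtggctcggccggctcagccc
Nlgn1: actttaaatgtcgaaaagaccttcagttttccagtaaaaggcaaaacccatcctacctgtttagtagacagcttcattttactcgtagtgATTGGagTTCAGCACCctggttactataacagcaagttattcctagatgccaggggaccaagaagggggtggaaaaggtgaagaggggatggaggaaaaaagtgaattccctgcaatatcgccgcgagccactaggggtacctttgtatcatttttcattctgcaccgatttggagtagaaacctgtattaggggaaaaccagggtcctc
The *Gabra2* window was the richest in G and C of those shown (70.0%, higher than 90.4% of all 32851 windows), with 25 CG pairs, against a median of 52.7% and 7 pairs over all windows. *Grm8* had 67.0% and 33 CG pairs, *Gria4* 59.7% and 17, *Chrm2* 52.7% and 16, and *Nlgn1* 44.7% and 6. Each of the 5 windows held the NF-Y box, which 37.4% of all windows did, and those of *Gabra2*, *Chrm2* and *Grm8* the Sp1 box, found in 35.7%. REST is a repressor of neuronal genes in other cells, and the left arm of its site, found in 0.371% of all windows, stood 153 bases before this start of *Nlgn1*. None of the 5 shown held the TATA box (13.6% of all windows) or the nuclear receptor site (16.3%). In the windows shown no match overlapped another. A match is a run of letters and not a measured binding site, and no data on promoters were read here.

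Over all *Pdgfra*+ cells, 5 of the 8 genes were at least 2-fold higher in the adult library than at puberty (*Gria1*, *Grm8*, *Chrm2*, *Nlgn1* and *Il1rapl1*), 1 was at least 2-fold lower (*Gabra2*), and *Gria4* and *Grin2b* lay between. Among 13604 genes with at least 1 UMI in 1000000 (CPM) in 1 library, 6.95% were as much higher and 3.04% as much lower (5.46% and 4.06% with TMM scaling, which moved each log2 ratio by -0.14). *Grin2b* was under 1 CPM in both libraries, so 7 of the 8 passed that minimum. The choice of genes used these ratios, so the shares are given as background and nothing is read from them. The median log2 ratio was 1.17 over the 8 genes and 0.17 over all genes tested. Levels are summed UMIs per 1000000 UMIs of a library or subset, each interval in the text is a 95% interval for counting error alone, and UMIs of a cell are not independent, so true errors are wider. Counts came from the 3′ ends of transcripts, so a level of 1 gene is not compared with that of another.

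**Figure D1:**
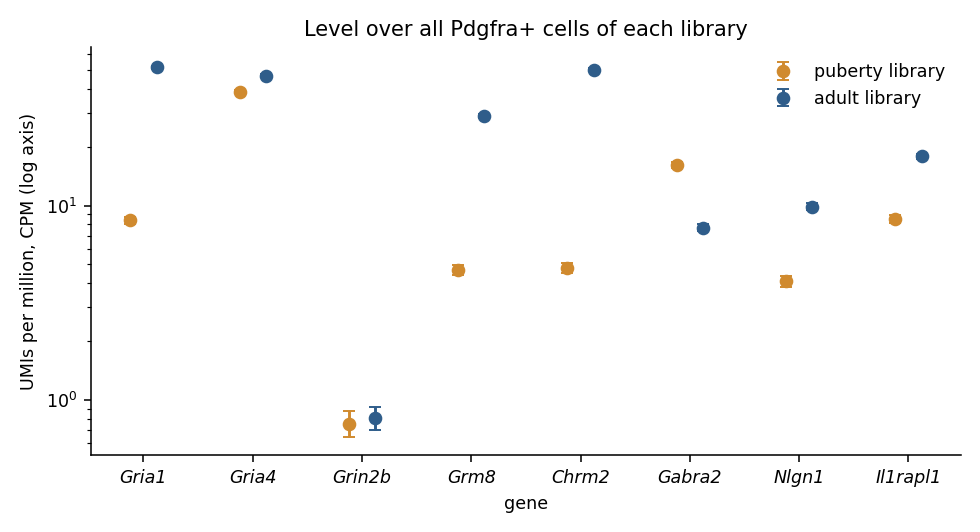
Level of each of the 8 genes in CPM (log axis) over all Pdgfra+ cells of the pubertal (orange) and adult (blue) library; bars are 95% Poisson intervals. Gria1, Grm8 and Chrm2 stand farthest apart between the libraries, Gabra2 is the 1 gene lower in the adult library, and both Grin2b points are under 1 CPM.

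To see in which fibroblasts each gene was read, 6 subsets were taken from marker UMIs: cells with both *Pi16* and *Dpp4*, with *Gdf10* or *Fmo2*, with *Thbs4* or *Bmp5*, with at least 2 UMIs of *Fabp4*, with *Crabp1*, and with *Frmpd4*, a scaffold gene of postsynaptic densities. They held 74.1%, 39.5%, 4.91%, 9.42%, 1.53% and 5.19% of the *Pdgfra*+ cells at puberty and 42.2%, 47.9%, 14.8%, 12.2%, 12.7% and 25.1% in the adult, while 3.35% and 7.08% of cells were in none. The subsets overlapped: 33.6% of pubertal and 46.3% of adult cells were in 2 or more, and 49.9% of the adult *Thbs4* or *Bmp5* cells also had *Frmpd4*. A gene is said to mark a subset where its CPM inside was at least 2-fold that of the *Pdgfra*+ cells outside, in both libraries. Subsets are broad and are not the same cells at both ages, and how far such shifts move a ratio within a subset was not tested.

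By that measure *Gabra2* marked the *Pi16* and *Dpp4* cells, as did 4.4% of 13594 genes tested. *Gria4* marked the *Gdf10* or *Fmo2* cells (1.04% of genes), and *Grm8* and *Grin2b* the *Thbs4* or *Bmp5* cells (1.93%). *Grin2b*, under 1 CPM in both libraries, was not among the 13594 genes tested. *Gria1* and *Chrm2* marked the *Crabp1* cells (4.65%), and *Gria1*, *Chrm2*, *Grm8* and *Nlgn1* the *Frmpd4* cells (1.1%). No member marked the *Fabp4* cells, which 2.23% of genes did, and *Il1rapl1* marked none of the 6 subsets. Since the genes were chosen with these patterns known, the background shares are again not read as evidence.

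**Figure D2:**
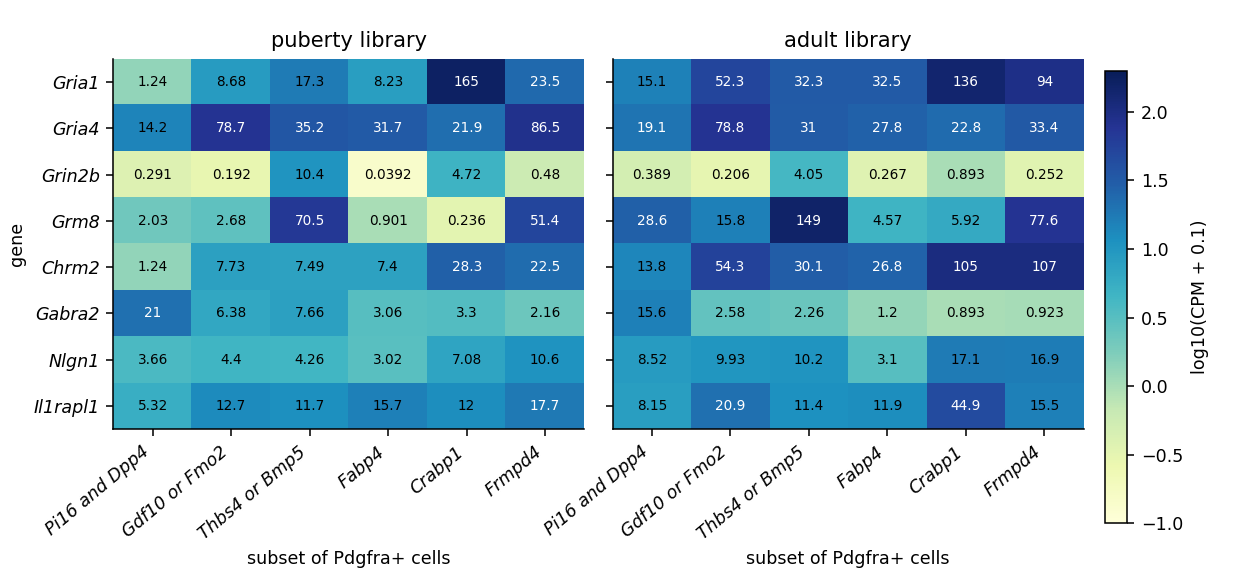
CPM of each gene (rows) in each subset of Pdgfra+ cells (columns) for both libraries, with the value in each cell and colour on the scale log10(CPM + 0.1). Gabra2 is highest in the Pi16 and Dpp4 cells, Grm8 and Grin2b in the Thbs4 or Bmp5 cells and Gria1 in the Crabp1 cells, in both libraries.

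*Gria1*, the AMPA receptor subunit, was counted at 8.38 CPM at puberty (1984 UMIs, 8.02 to 8.76) and 51.4 CPM in the adult (12719 UMIs, 50.5 to 52.3), a ratio of 6.13 (5.85 to 6.43). In the *Crabp1* cells it stood at 165 CPM at puberty and 136 CPM in the adult, 30.0-fold and 3.54-fold the level of cells outside. That subset alone held 35.3% of all its UMIs at puberty and 34.8% in the adult, from 1.53% and 12.7% of the cells. Within these cells the adult level was slightly below the pubertal one, with a ratio of 0.825 (0.762 to 0.895), while it was higher in the adult in the other 5 subsets, by 1.87 in the *Thbs4* or *Bmp5* cells to 12.2 in the *Pi16* and *Dpp4* cells, where it was lowest (1.24 and 15.1 CPM). Mural-like cells (no *Pdgfra* UMI and at least 3 of 8 pericyte and smooth muscle markers), taken as background from free RNA, had 1 *Gria1* UMI at puberty (0.232 CPM, 0.00587 to 1.29), so the 12.2 rests on a pubertal level not told apart from background. In adult *Frmpd4* cells it reached 94.0 CPM, against 23.5 at puberty, and in cells with no subset marker but *Frmpd4* 182 against 123 CPM. Cells in none of the 6 subsets stood above the whole *Frmpd4* subset, at 114 CPM of *Gria1* in the adult and 73.4 at puberty.

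*Gria4*, the other AMPA subunit of the group, hardly differed between the libraries over all cells, at 38.6 CPM at puberty (9133 UMIs) and 46.5 in the adult (11510 UMIs), a ratio of 1.20 (1.17 to 1.24). The *Gdf10* or *Fmo2* cells held 85.2% and 86.2% of its UMIs and stood at 78.7 and 78.8 CPM, 8.04-fold and 6.04-fold the cells outside. Taking cells of that subset and no other gave 237 and 198 CPM. Of the 6 subsets the *Frmpd4* cells lay farthest from a flat level: *Gria4* was at 86.5 CPM there at puberty and 33.4 in the adult, a ratio of 0.386 (0.358 to 0.416). In the others the ratio ran from 0.875 (0.797 to 0.960) in the *Fabp4* cells to 1.35 (1.27 to 1.43) in the *Pi16* and *Dpp4* cells. In cells of none of the 6 it was 1.56 (1.24 to 1.97). In pubertal *Frmpd4* cells 62.2% also belonged to the *Gdf10* or *Fmo2* subset, against 48.8% of adult ones.

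*Grin2b*, the NMDA receptor subunit, was rare, with 178 UMIs in 74 cells at puberty (0.752 CPM) and 199 UMIs in 94 adult cells (0.804 CPM), a ratio of 1.07 (0.869 to 1.32). As few as 16 pubertal and 23 adult cells held at least as many of these UMIs as all other cells together. In the *Thbs4* or *Bmp5* cells it stood at 10.4 CPM at puberty and 4.05 in the adult, 41.7-fold and 20.6-fold the cells outside, and within them the adult level was lower (ratio 0.390, 0.306 to 0.498). In cells of that subset and no other it was 73.7 CPM in 137 pubertal cells and 31.8 CPM in 320 adult cells. Over the same interval the subset went from 4.91% to 14.8% of cells.

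*Grm8*, the metabotropic glutamate receptor, went from 4.64 CPM (1098 UMIs, 4.37 to 4.92) to 28.9 CPM (7147 UMIs, 28.2 to 29.5), a ratio of 6.22 (5.84 to 6.64). The *Thbs4* or *Bmp5* cells held 75.4% and 81.0% of its UMIs, at 70.5 CPM at puberty and 149 CPM in the adult, 58.7-fold and 22.9-fold the cells outside. In the *Frmpd4* cells it was at 51.4 and 77.6 CPM. Within these 2 subsets the ratio was 2.11 (1.96 to 2.27) and 1.51 (1.39 to 1.64), against 6.22 over all cells. Among cells of 1 of these subsets and no other, the ratio was 1.15 (0.951 to 1.41) and 0.282 (0.210 to 0.381). In the *Pi16* and *Dpp4* cells, which overlap with both and held 33.7% and 48.4% of its UMIs, it was 14.1 (2.03 to 28.6 CPM), where the pubertal level is close to the upper bound for mural-like cells (0.695 CPM, 0.143 to 2.03), taken here as background. With each of 7 classes of cells (those in 1 subset alone, or in none) given the same weight, the log2 ratio of *Grm8* was -0.08. It was close to absent in pubertal *Crabp1* cells, with 1 UMI in 289 cells.

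*Chrm2*, the muscarinic receptor, had the widest gap of the 8 genes: 4.75 CPM at puberty (1125 UMIs, 4.48 to 5.04) and 50.0 CPM in the adult (12372 UMIs, 49.1 to 50.9), a ratio of 10.5 (9.89 to 11.2). It was higher in the adult in each of the 6 subsets, by 3.62 in the *Fabp4* cells to 11.1 in the *Pi16* and *Dpp4* cells. The *Crabp1* cells stood at 28.3 and 105 CPM and the *Frmpd4* cells at 22.5 and 107 CPM, 6.55-fold and 2.53-fold, and 5.97-fold and 3.33-fold, the cells outside. In cells of none of the 6 subsets *Chrm2* was at similar levels, 22.7 and 101 CPM. In cells with *Frmpd4* and no other subset marker it was at 70.3 and 216 CPM, and in *Pi16* and *Dpp4* cells with no other marker at 0.444 and 2.50 CPM, the first of which is under the 0.695 CPM that the count of 0 in pubertal mural-like cells allows. With the 7 classes at the same weight the log2 ratio was 1.91, against 3.39 over all cells.

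*Gabra2*, the GABA-A alpha subunit, was the one gene lower in the adult, at 16.2 CPM at puberty (3826 UMIs, 15.7 to 16.7) and 7.69 CPM in the adult (1904 UMIs, 7.35 to 8.05), a ratio of 0.476 (0.450 to 0.503). The *Pi16* and *Dpp4* cells held 99.8% of its UMIs at puberty and 99.4% in the adult, at 21.0 and 15.6 CPM, 192-fold and 165-fold the cells outside. These folds rest on few UMIs outside and moved with the processing, from 7.70 to 233 at puberty and from 23.9 to 215 in the adult over 9 alternatives, lowest with thinned cells whose subsets were taken on thinned counts. In cells of that subset alone the level was 27.3 CPM in 9264 pubertal cells and 26.6 CPM in 4436 adult cells, a ratio of 0.975 (0.915 to 1.04). The *Pi16* and *Dpp4* subset itself went from 74.1% to 42.2% of *Pdgfra*+ cells. The 2-fold call was a near one: with cells thinned to the same depth the log2 ratio was -0.995, and with the 7 classes at the same weight it was 0.01, with *Grin2b* at -1.22.

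The adhesion genes were spread more evenly. *Nlgn1* stood at 4.08 CPM at puberty (966 UMIs, 3.83 to 4.35) and 9.86 CPM in the adult (2441 UMIs, 9.47 to 10.3), a ratio of 2.42 (2.24 to 2.61), and was higher in the adult in 5 subsets by 1.60 to 2.42, with a ratio of 1.03 (0.764 to 1.39) in the *Fabp4* cells. It was highest in the *Frmpd4* cells at puberty (10.6 CPM) and in the *Crabp1* and *Frmpd4* cells in the adult (17.1 and 16.9 CPM). *Il1rapl1* stood at 8.52 CPM (2017 UMIs, 8.15 to 8.90) and 18.0 CPM (4447 UMIs, 17.4 to 18.5), a ratio of 2.11 (2.00 to 2.22) that fell just under 2-fold with TMM scaling (log2 0.93). Its order of subsets differed between the libraries: at puberty it was highest in the *Frmpd4* cells (17.7 CPM) with *Crabp1* cells at 12.0, and in the adult it was highest in the *Crabp1* cells (44.9 CPM) with *Frmpd4* cells at 15.5. Among pubertal cells of 1 subset alone, *Il1rapl1* was highest in the *Gdf10* or *Fmo2* cells (26.2 CPM), with *Frmpd4* cells at 9.29 (7 UMIs). In such adult cells it was highest with *Crabp1* (61.8 CPM).

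**Figure D3:**
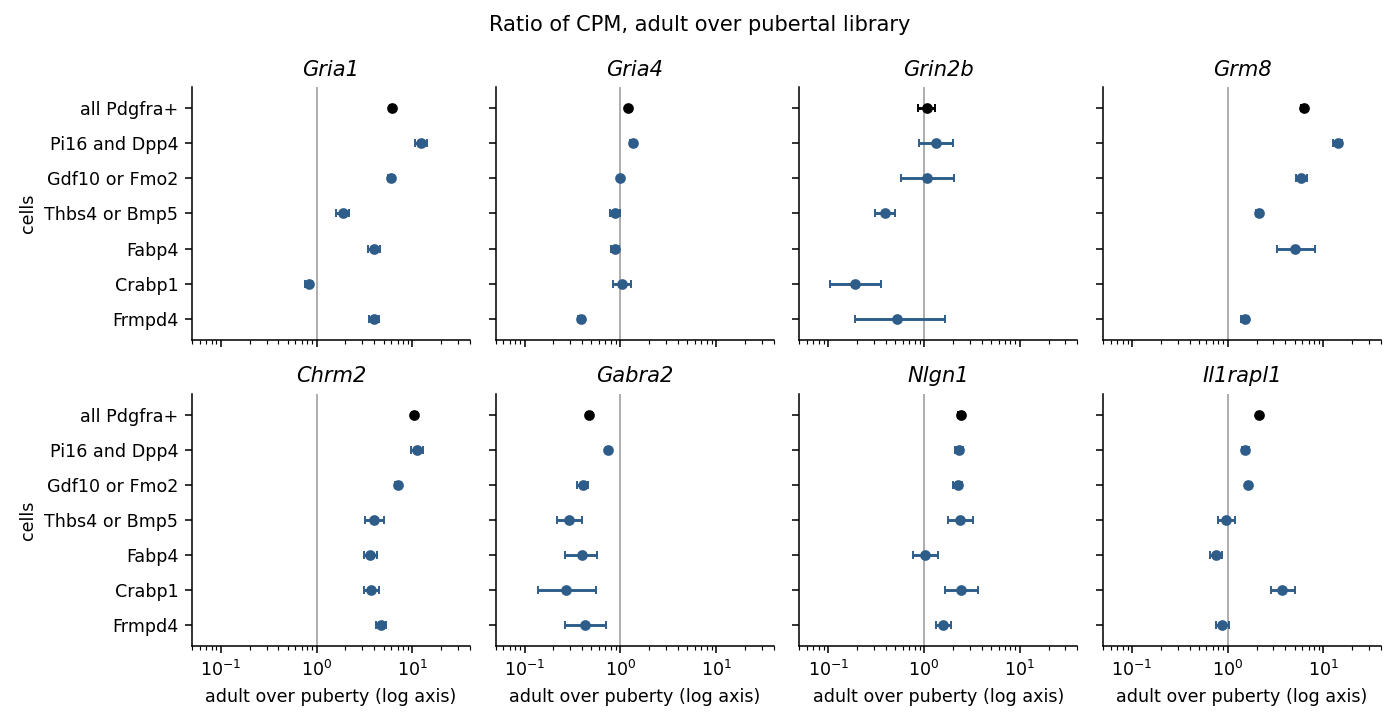
Ratio of CPM, adult over puberty (log axis), for each gene over all Pdgfra+ cells (black) and in each subset (blue); bars are 95% conditional binomial intervals, and points resting on 3 or fewer UMIs in a library are left out (Grm8 in Crabp1 cells and Grin2b in Fabp4 cells). Chrm2 lies right of 1 in all 6 subsets and Gabra2 left of 1, while Gria1 lies left of 1 in the Crabp1 cells alone.

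Because shares of cells with a UMI depend on depth, each cell with at least 3000 UMIs was also thinned to 3000 UMIs, leaving out 336 pubertal and 426 adult *Pdgfra*+ cells. *Gria1* then gave a UMI in 1.36% of pubertal and 10.7% of adult cells (2.49% and 18.7% without thinning), *Chrm2* in 1.05% and 9.18% (2.60% and 14.7%), and *Grm8* in 0.911% and 4.29% (1.47% and 6.76%). *Gria4* was even at 6.32% and 6.38% (11.6% and 10.9%), as was *Grin2b* at 0.210% and 0.224% (0.392% and 0.448%). *Gabra2* went from 3.89% to 1.76% (10.6% and 4.12%), *Nlgn1* from 0.879% to 1.84% (1.95% and 3.06%), and *Il1rapl1* from 1.93% to 3.34% (4.75% and 7.13%). In the subset with the highest share, 26.7% of adult *Crabp1* cells had *Gria1* (28.1% at puberty), 22.9% of adult *Thbs4* or *Bmp5* cells had *Grm8* (13.2%), and 19.2% of adult *Crabp1* cells had *Chrm2* (5.90%).

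As background from free RNA, the same shares were taken in the mural-like cells, 646 at puberty and 391 in the adult. Their median depth was 6413 and 6189 UMIs, and 623 and 321 of them were deep enough to thin. In thinned mural-like cells 7 of the 8 genes, all but *Il1rapl1*, gave shares of 0 in the adult and of at most 0.321% at puberty. A count of 0 there allows shares of up to 0.482% at puberty and 0.935% in the adult. The share of *Grin2b* in *Pdgfra*+ cells is below those limits, so this share alone cannot be told from background over all cells. Without thinning, 0.201% of pubertal and 0.219% of adult *Pdgfra*+ cells had at least 2 *Grin2b* UMIs, and no mural-like cell had any. The pubertal *Grm8* share of 0.911% is also inside the interval of its mural-like share (0.321%, 0.0389 to 1.15). In summed UMIs the intervals were apart, at 4.64 CPM (4.37 to 4.92) in pubertal *Pdgfra*+ cells and 0.695 CPM (0.143 to 2.03) in mural-like ones. In the *Thbs4* or *Bmp5* cells the share of *Grin2b* was 3.19% at puberty and 1.10% in the adult.

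*Il1rapl1* was the opposite case. It gave a UMI in 22.3% of thinned mural-like cells at puberty and 32.4% in the adult, above its share in fibroblasts, and stood at 143 and 229 CPM in these cells. In Schwann-like cells (66 and 53 cells with no *Pdgfra* UMI and at least 3 of 7 glial markers, median depth 3302 and 2726 UMIs) *Il1rapl1* was at 368 and 178 CPM, *Nlgn1* at 102 and 79.7 CPM and *Gria4* at 28.7 and 45.2 CPM. Among *Pdgfra*+ cells, at least 3 mural markers were found in 8.47% of pubertal and 2.74% of adult cells with *Il1rapl1*, against 1.57% and 0.820% of those without, and in 5.24% and 2.40% of cells with *Gria4*, against 1.46% and 0.780%. The 8 mural markers summed to 131 CPM in pubertal and 94.7 CPM in adult *Pdgfra*+ cells, with none at 0, and the 7 Schwann markers to 42.3 and 46.7 CPM, also with none at 0. Their part in the *Il1rapl1*, *Nlgn1* and *Gria4* levels was not tested. For the ratio between stages, *Pdgfra*+ cells with at least 3 markers of either type were left out. The log2 ratio was then 1.17 for *Il1rapl1* (1.08 with them), 1.26 for *Nlgn1* (1.27) and 0.34 for *Gria4* (0.27).

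**Figure D4:**
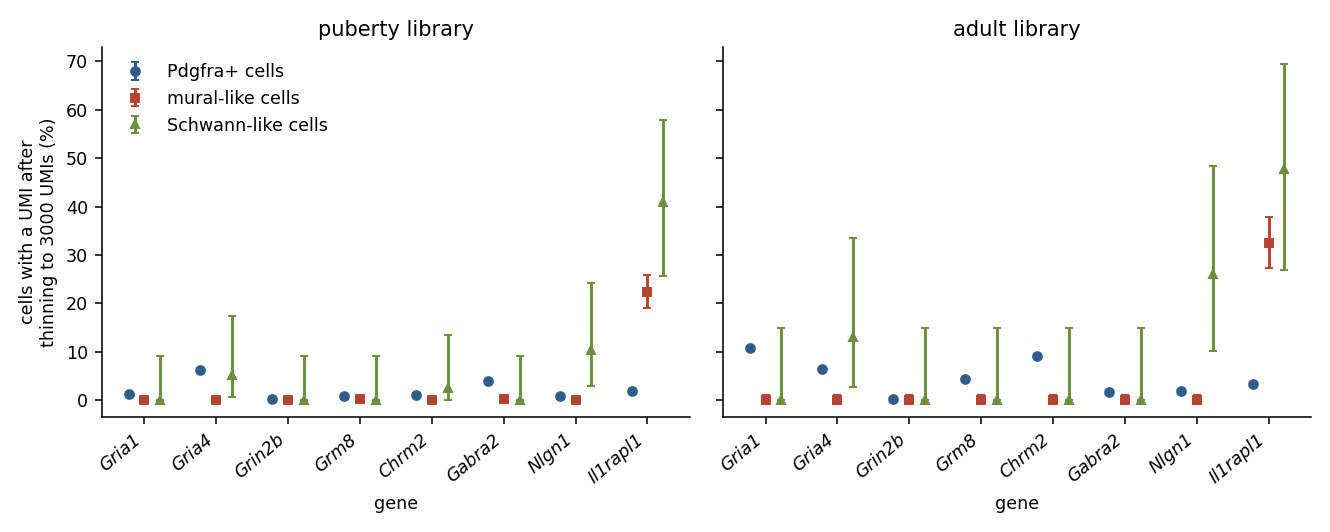
Share of cells (%) with a UMI of each gene after thinning to 3000 UMIs, in Pdgfra+ (circles), mural-like (squares) and Schwann-like cells (triangles) of each library; bars are exact 95% binomial intervals. Mural-like cells are at or near 0 for 7 of the 8 genes, and for Il1rapl1 both other cell types lie above the Pdgfra+ cells.

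Neuronal genes were at low levels in these cells. The 10 neuronal genes examined summed to 12.7 CPM in pubertal and 8.26 CPM in adult *Pdgfra*+ cells, with none at 0 and the highest at 4.23 CPM (*Elavl3* at puberty). *Snap25*, of the vesicle fusion machinery, gave 2 and 3 UMIs and *Elavl4* 4 and 3 UMIs. The summed neuronal level was lower in cells with *Gria1* than in those without it (9.10 against 12.8 CPM at puberty, 5.19 against 8.94 in the adult), and the same held for *Chrm2* (9.04 against 12.8, and 5.15 against 8.75). It was higher in cells with *Gabra2* (19.2 against 11.9, and 13.9 against 7.98) and with *Nlgn1* (18.3 against 12.6, and 8.87 against 8.24). With *Grin2b* it was higher at puberty (17.2 against 12.7) and lower in the adult (7.03 against 8.27). It was nearly even with *Il1rapl1* (13.1 against 12.7, and 8.36 against 8.25) and lower with *Gria4* and *Grm8* in both libraries. The part of neuronal RNA in the levels of these genes was not tested. Gene length moved with stage as well: all 8 genes span 137 to 1375 kb, longer than at least 90.1% of tested genes, and the median log2 ratio was 0.33 for 1957 genes of 100 kb or more and 0.15 for shorter ones. *Malat1*, a nuclear RNA, stood at 15632 CPM at puberty and 18931 in the adult, and the part of these differences in the ratios of the 8 genes was not tested.

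Whether the genes were read in the same cells was asked in the thinned cells, where 15.4% of pubertal and 31.7% of adult *Pdgfra*+ cells had at least 1 of the 8 genes and 1.08% and 5.53% at least 2. *Gria1* and *Chrm2* were read together in 647 adult cells, the most of any pair in that library, and in 32 pubertal ones, where *Gria4* and *Il1rapl1* were together in 50. *Chrm2* was found in 12.7% of pubertal cells with *Gria1* and in 0.886% of those without, and in the adult in 29.4% and 6.76%. Inside the adult *Frmpd4* cells the shares were 33.9% (30.9 to 37.1) with *Gria1* and 13.6% without, and inside the adult *Crabp1* cells 22.2% (19.2 to 25.5) and 18.1%.

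*Grm8* lay apart from both. Although *Grm8*, *Gria1* and *Chrm2* all marked the *Frmpd4* cells, *Chrm2* was found in 1.24% (0.501 to 2.54) of 563 adult *Frmpd4* cells with *Grm8* and in 19.3% of those without. Over all adult cells with *Grm8*, 1.59% had *Gria1* and 1.47% *Chrm2*, against 11.1% and 9.53% of cells without it. The *Frmpd4* subset thus held cells read for *Grm8* and cells read for *Gria1* and *Chrm2* that were mostly not the same ones. In adult *Thbs4* or *Bmp5* cells, *Grm8* was found in 2.94% (0.0744 to 15.3) of 34 cells with *Grin2b* and in 23.1% of those without. At puberty these shares were 10.3% (2.19 to 27.4) of 29 cells and 13.3%. Of adult cells with *Gabra2*, 0.826% had *Gria1* and 1.38% *Chrm2*, against 10.9% and 9.32% of those without, while *Nlgn1* was as frequent with it (1.93%) as without (1.84%). The pairs set side by side here and for the partner subunits were chosen after their values had been seen.

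**Figure D5:**
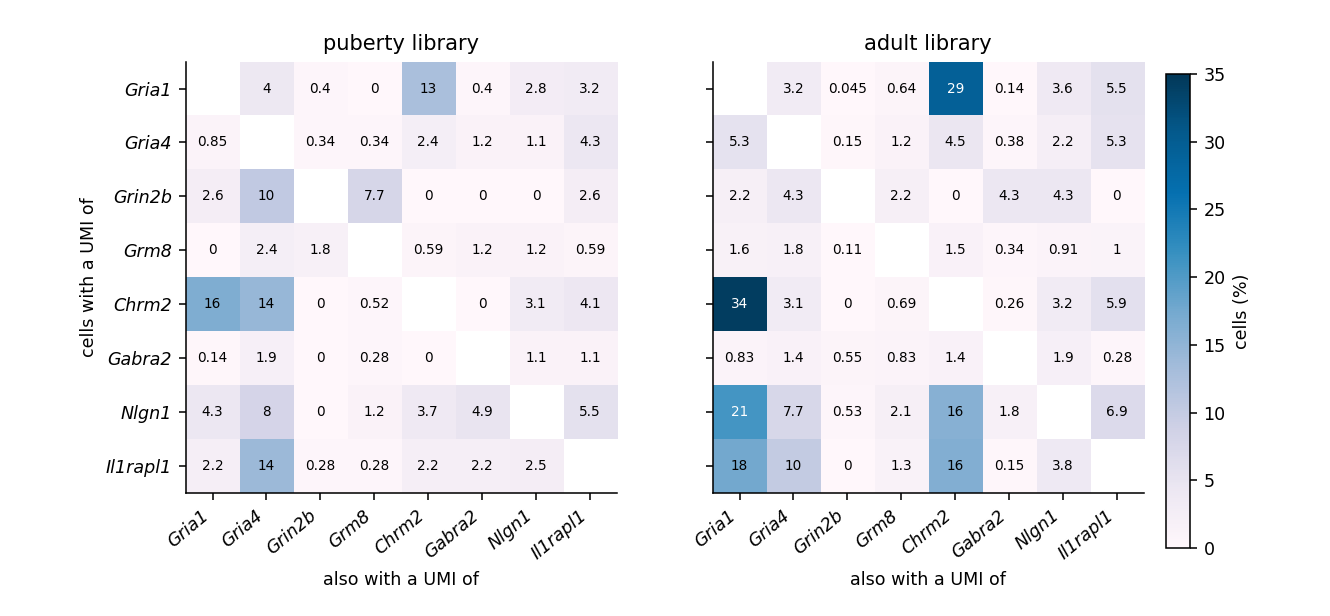
Share (%) of thinned Pdgfra+ cells with a UMI of the row gene that also had a UMI of the column gene, by library. The Gria1 and Chrm2 pair reaches 29% and 34% in the adult library, while rows of Grm8 and Gabra2 stay under 5%.

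To set the 8 genes among their relatives, 165 genes in 13 lists of receptors, auxiliary subunits, adhesion genes, scaffolds and transmitter enzymes were read in the same way. Of these, 81 passed 1 CPM in 1 library, 24 were at least 2-fold higher in the adult and 3 lower, and without the 8 genes 19 and 2 of 74, beside 6.95% higher and 3.04% lower over all genes tested. The 19 include *Frmpd4*, which defines a subset here and is counted among the scaffolds. By list, 2 of 3 tested AMPA subunits were higher, 2 of 5 kainate and delta subunits, 0 of 2 NMDA subunits, 1 of 3 metabotropic glutamate receptors, and 1 of 6 auxiliary subunits with 1 lower. Both tested muscarinic receptors and both tested nicotinic subunits were higher, as were 1 of 8 GABA and glycine receptor subunits with 2 lower, 2 of 6 neuroligins and neurexins, 1 of 5 genes of the IL1RAPL family and its partners, 5 of 14 other adhesion genes and 5 of 17 scaffolds. None of 8 tested genes of transmitter synthesis, transport and breakdown passed 2-fold. The median log2 ratio of the tested genes of a list ran from -0.36 (metabotropic glutamate receptors) to 2.38 (muscarinic receptors), beside 0.17 over all genes tested, and the lists hold 2 to 17 tested genes each.

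Among AMPA subunits, *Gria3* went from 36.7 CPM at puberty to 99.2 in the adult (ratio 2.70), and *Gria2*, the subunit that keeps calcium out of most AMPA channels in the brain, gave 6 and 2 UMIs. *Gria3* was found in 37.3% of thinned pubertal cells with *Gria1* and in 8.05% of those without (36.3% and 18.2% in the adult). Inside the *Crabp1* cells this came to 39.5% (28.8 to 51.0) against 28.5% at puberty and 42.3% (38.6 to 46.0) against 39.1% in the adult. The obligatory NMDA subunit *Grin1* gave 45 and 43 UMIs, or 0.190 and 0.174 CPM, and *Grin3a*, another NMDA subunit, was at 4.12 and 7.39 CPM. *Grik5*, a kainate subunit, was at 8.15 and 8.45 CPM, and *Neto2*, a kainate auxiliary subunit, at 7.82 and 4.46 CPM.

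*Chrm3*, the muscarinic receptor that couples to calcium release, stood beside *Chrm2* at 33.9 and 87.5 CPM (ratio 2.58), and *Chrm1*, *Chrm4* and *Chrm5* gave at most 8 UMIs each in a library. In the adult, *Chrm3* was less frequent in cells with *Chrm2* than in those without it: *Chrm3* was found in 5.35% (4.38 to 6.46) of cells with *Chrm2* and in 13.1% of those without, and in 10.3% (6.41 to 15.5) and 5.72% at puberty. *Chrna7*, a nicotinic subunit, was at 1.14 and 2.67 CPM. *Chat*, which makes acetylcholine, gave 1 UMI in each library.

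*Gabrb2*, a GABA-A beta subunit, went the way of *Gabra2*: 37.8 CPM at puberty and 15.8 in the adult (ratio 0.418), and 8.78-fold and 11.3-fold higher in the *Pi16* and *Dpp4* cells than outside. Inside those cells the pair was no more frequent together than apart, with *Gabrb2* in 11.0% (8.77 to 13.5) of thinned pubertal cells with *Gabra2* and 11.1% without, and in 7.54% (5.03 to 10.8) and 7.21% in the adult. *Gabra3*, another alpha subunit, was even between stages at 126 and 121 CPM. *Gad1*, which makes GABA, gave no UMI in either library, where 3 UMIs would be the limit.

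Of the adhesion genes, *Nlgn2* was at 36.1 and 40.2 CPM and *Nrxn3*, a neurexin, at 5.10 and 10.6 (ratio 2.08). *Ptprd*, a partner of *Il1rapl1*, was at 98.3 and 173 CPM and was found in 41.1% (37.4 to 44.9) of thinned adult cells with *Il1rapl1* and in 32.9% of those without, but at puberty in 18.2% (14.3 to 22.5) and 21.2%. *Slitrk1* went from 0.224 CPM (53 UMIs) to 5.59 CPM (1384 UMIs, ratio 25.0), and *Adgrl3*, a latrophilin, from 10.3 to 38.3 CPM (3.71), and these stood in the *Crabp1* cells at 19.7-fold and 8.07-fold, and 39.9-fold and 7.24-fold, the cells outside. *Cadm3*, a cell adhesion gene, was at 177 and 127 CPM. Among scaffolds *Dlg2* went from 19.3 to 64.9 CPM, *Dlg3* from 4.52 to 9.55 and *Dlgap1* from 22.6 to 51.1, *Gphn*, the scaffold of inhibitory synapses, was at 452 and 559 CPM, and *Frmpd4*, which defines a subset here, went from 24.5 to 201 CPM.

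Genes with the pattern most like each of the 8 were looked for among 10203 genes by Pearson's r of log2(CPM + 1) over 14 points, the 7 classes of cells in both libraries. The points share 2 libraries and differ in cell number and depth, so r is a description. *Gria1* was closest to *Hmcn1*, *Hc* and *Col13a1* (r 0.97 to 0.98), and *Chrm2* to *Fam180a*, *Mob3b* and *Arih1* (0.95 to 0.97). *Gabra2* was closest to *Hdac7*, *Nalf2* and *Krtdap* (0.97 to 0.98), *Grin2b* to *Caln1*, *Cnksr2* and *Reln* (0.99), *Grm8* to *Sorl1*, *Hmcn2* and *Cilp* (0.91 to 0.93), and *Gria4* to *Arhgdib*, *Art4* and *Nog* (0.92 to 0.93). The *Grin2b* matches rest mostly on cells of the *Thbs4* or *Bmp5* subset alone (73.7 and 31.8 CPM), with every other point at 1.90 CPM or less. The adhesion genes had looser matches, *Nlgn1* with *Inpp4a*, *Hsd17b4* and *Aff2* (0.85 to 0.91) and *Il1rapl1* with *Agpat5*, *Nav2* and *Elmo2* (0.90 to 0.92). Among the 8 themselves the closest pair was *Gria1* and *Chrm2* (r 0.88) and the most opposed *Gria1* and *Gabra2* (-0.79).

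The *Fabp4* minimum of 2 UMIs left cells of similar *Gria1* level on both sides at puberty, while other genes differed across it. Pubertal cells with 1 UMI of *Fabp4*, just outside the subset, stood at 21.4 CPM of *Gria1* and 56.8 of *Gria4*, and those with 2 UMIs, just inside, at 21.5 and 77.0, both above the whole subset (8.23 and 31.7). *Gabra2* was at 10.8 CPM outside and 4.11 inside, *Grm8* at 2.97 and 0.588, and *Nlgn1* at 4.05 and 8.82. In the adult *Chrm2* was at 72.5 CPM with 1 UMI and 49.1 with 2, *Gria1* at 67.7 and 55.7, and *Nlgn1* at 10.2 and 2.95.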

How the data were processed

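The files the authors deposited hold whole UMI counts for genes by cells, 1 matrix per library, filtered for cells but not normalized. Per the file headers they come from Cell Ranger 8.0.1, run on 10x Genomics Chromium GEM-X 3′ v4 libraries per the labels. The submitters' processing notes name mm10. Kit, software version and pubertal age differ in the study's methods, and the labels were followed. The libraries held 255274670 (puberty) and 259549498 (adult) UMIs.

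Counts were summed over cells and divided to CPM (Python 3.11.15, numpy 2.4.6, scipy 1.17.1, pandas 2.3.3). Intervals are exact Poisson for CPM, exact binomial (Clopper-Pearson) for shares and conditional binomial for ratios, at 95%, for counting error only, and a count of 0 allows up to 3 counts. The ratio and its interval were tested on simulated data. No test across samples was possible with 1 library per stage. Doublets were kept, and as an alternative the highest Scrublet scores (scanpy 1.11.5), at 0.4% per 1000 barcodes (8.67% and 9.27%), and cells above the 99th percentile of genes were removed. Other alternatives were stricter cell filters, other fibroblast rules, TMM scaling (edgeR 4.0.16), mean CPM per cell, classes at equal weight and thinning.

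The 8 genes, the subsets and the gene lists were chosen with earlier results of these data known. Named from the lists were the gene with the highest CPM in each, genes past 2-fold between stages with at least 5 CPM, and genes past 4-fold in the same subset of both libraries with at least 10 CPM there. Some genes this rule names are not reported here. *Gria2*, *Grin1*, *Chrm1*, *Chrm4*, *Chrm5*, *Chat* and *Gad1* were named after their values were seen.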

Additional observations from a re-analysis of the deposited data

Results flagged for a closer look

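For 3 of the 8 genes the adult over puberty ratio pointed in opposite ways in cells that carried the marker of 1 subset and of no other, each by at least 1.5-fold and beyond its counting interval. *Gria1* was higher in the adult in cells of the *Pi16* and *Dpp4* subset alone (0.453 to 2.11 CPM, ratio 4.66, 3.32 to 6.61, from a pubertal level inside the interval of mural-like background, 0.00587 to 1.29 CPM) and lower in cells of the *Crabp1* subset alone (251 to 153 CPM, ratio 0.610, 0.538 to 0.693, from 93 pubertal and 829 adult cells). *Gria4* was higher in cells of the *Fabp4* subset alone (11.4 to 19.0 CPM, ratio 1.66, 1.20 to 2.31) and lower in cells of the *Frmpd4* subset alone (29.2 to 13.3 CPM, ratio 0.457, 0.287 to 0.759, from 73 and 1021 cells). *Grm8* was higher in cells of the *Pi16* and *Dpp4* subset alone (0.533 to 5.74 CPM, ratio 10.8, 8.16 to 14.5, from a pubertal level likewise inside that background, 0.143 to 2.03 CPM) and lower in cells of the *Frmpd4* subset alone (82.3 to 23.2 CPM, ratio 0.282, 0.210 to 0.381). With 1 library per stage the difference between subsets was not tested.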

How the results depend on the processing

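No paired analysis was possible because each stage had 1 library. Of the 8 genes, 5 were at least 2-fold higher and 1 lower, and 7 of 10 alternatives left the genes behind both counts as they were. TMM scaling left 4 higher (*Il1rapl1* at a log2 ratio of 0.93). With classes at equal weight 3 were higher, *Grm8* and *Gabra2* turned in direction (-0.078 and 0.0061), *Gria1* fell to 0.21 and *Grin2b* to -1.22. With cells thinned to 3000 UMIs 0 were lower (*Gabra2* at -0.995). A 3-fold limit left 3 higher and 0 lower. *Chrm2* stayed between 1.91 and 3.78 and *Nlgn1* between 1.13 and 1.42. The share of all genes past the fold, 6.95% higher and 3.04% lower, was 10.5% and 7.26% with genes of at least 10 UMIs, 17.7% and 6.97% at 1.5-fold, and 2.71% and 0.956% at 3-fold. Each of the 10 pairs of gene and marked subset stayed at or above 2-fold under 9 alternatives, except *Nlgn1* in *Frmpd4* cells, at 1.99 among cells of 1 subset only. That alternative added *Il1rapl1* in the *Gdf10* or *Fmo2* and in the *Crabp1* cells, and thinning *Nlgn1* in the *Crabp1* cells. The lower of both libraries' folds of *Gabra2* in *Pi16* and *Dpp4* cells ran from 7.70 when thinned, with subsets taken on thinned counts, to 187. Leaving out cells with mural or Schwann markers and cells with shared barcodes were chosen after seeing the data. Depth limits *Grin2b*, which rests on 178 and 199 UMIs, and the folds of *Gabra2*.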
